A study of Homo sapiens with 6 samples.

Results

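miR-126 is a microRNA made from a hairpin in the gene EGFL7, and it gives a mature product from each side of that hairpin, miR-126-3p and miR-126-5p. Both products were found by name among the 2656 mature miRNAs of the count table, and these 2 rows are described here. The small RNA libraries came from K562, an established human leukaemia line. They were 3 libraries of azacitidine-resistant cells and 3 libraries of azacitidine-sensitive cells, which the labels call biological replicates. Resistant cells had been grown in rising concentrations of azacitidine for months, and sensitive cells are labelled as responsive to the drug. Azacitidine, an analogue of cytidine, is incorporated into RNA and DNA, where it binds up DNA methyltransferases so that methylation is lost. Both forms were grown in RPMI medium with serum and antibiotics, and the labels do not say whether the drug was present at harvest. They name no separate selections of resistant cells, so p-values measure the spread between these libraries.

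miRNAs guide Argonaute proteins to messenger RNAs that pair with the seed, the bases near the 5′ end of the miRNA, and such messages are repressed. miR-126 and its host EGFL7, a secreted protein of vessel walls, are best known from endothelial cells. There miR-126-3p represses SPRED1 and PIK3R2 and so sustains growth factor signalling, and it also represses VCAM1. In blood formation miR-126 is known from haematopoietic stem and progenitor cells and from leukaemia stem cells. In several other cancers the host gene has been described as silenced by DNA methylation and raised by inhibitors of DNA methyltransferases.

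The hairpin and its products are shown because all values below are counts of these sequences. In the hairpin the capitals mark the 5p product first and the 3p product after it, and in the products they mark the seed, bases 2 to 8.
MIR126 hairpin: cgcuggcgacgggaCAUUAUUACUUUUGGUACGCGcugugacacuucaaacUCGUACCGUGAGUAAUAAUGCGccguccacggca
miR-126-3p: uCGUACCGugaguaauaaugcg
miR-126-5p: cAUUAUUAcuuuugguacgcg
Sequences are from RefSeq (GRCh38.p14). The hairpin of 85 bases lies on the plus strand at chr9:136670602-136670686, and GENCODE 29 gives the same bounds. EGFL7 spans chr9:136658856-136672678 on the same strand. The hairpin falls within an intron, chr9:136670331-136670949, in each of the 4 coding EGFL7 transcripts that span it, out of 5 coding transcripts, and 0 exons of the gene overlap it.

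Each product has a sequence of its own. Each was found in 1 of 1562 RefSeq hairpins, and 0 other names among 2370 mature miRNAs carried the same sequence or the same seed. RNAfold paired 18 bases of the 5p product with 18 bases of the 3p product, with 16 bases between the products, and all 7 seed bases of each product lay in that duplex. The seed of miR-126-3p holds 2 CG dinucleotides, and 31 of the 2370 seeds (1.31%) hold 2 or more, while the seed of miR-126-5p holds 0. GC content was 45.5% for miR-126-3p and 38.1% for miR-126-5p, against a median of 47.8% over the 677 tested miRNAs with a known sequence.

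Library totals were 3291500 to 10644739 counts in resistant and 5660055 to 12563945 counts in sensitive libraries, and 768 miRNAs passed the filter on low counts. Resistant replicate 3 stood apart. Pearson's r of its log2 levels across miRNAs was 0.882 with resistant replicate 1 and 0.871 with resistant replicate 2, against 0.996 between those 2 and 0.980 to 0.993 among sensitive libraries. The most abundant miRNA of each resistant library was miR-92a-3p, at 20.2%, 17.5% and 58.6% of the counts in replicates 1 to 3, and that of each sensitive library was miR-21-5p, at up to 19.0%. Annotations that resemble fragments of other RNAs (19 in the table) took 4.94% of resistant replicate 3, 1.00% and 1.03% of the other resistant libraries, and 1.07% to 1.69% of the sensitive ones. Of 11 blood cell miRNAs, miR-142-3p, miR-223-3p, miR-144-3p, miR-451a and miR-486-5p had over 100 counts in every library, while miR-150-5p and miR-155-5p had 0 to 7. Levels, shares and the arm ratio of miR-126 and the values of the miRNA lists are given with and without resistant replicate 3.

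hsa-miR-126-3p was among the most abundant miRNAs of these cells and was lower in each resistant library than in each sensitive one. It had 213038, 333498 and 23043 counts in resistant replicates 1 to 3, against 567753, 467227 and 182662 counts in sensitive replicates 1 to 3. Ranked by count within a library, it was number 9, 8 and 13 in resistant libraries and number 5 in each sensitive library. After scaling by trimmed mean of M values (TMM), its level was 21683, 25164 and 9052 CPM (counts relative to the scaled library total) in resistant libraries, against 47258, 47720 and 33797 CPM in sensitive libraries. The groups did not overlap, and resistant replicate 3 was the lowest library by far. As a share of all counts, without TMM scaling, the groups lay closer, with 3.13% in resistant replicate 2 and 3.23% in sensitive replicate 3.

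The mean level of miR-126-3p was 18633 ± 8478 CPM in resistant cells and 42925 ± 7908 CPM in sensitive cells (SD, n = 3 each). The log2 fold change, resistant over sensitive, was -1.20 (SE 0.48, 95% interval -2.32 to -0.09), a level 2.30-fold lower. It did not pass the threshold of 0.05 in edgeR's quasi-likelihood test over all miRNAs (adjusted p = 0.166) or in DESeq2 (adjusted p = 0.0649). Its unadjusted p in edgeR was 0.0377, and 26.7% of all tested miRNAs had an unadjusted p under 0.05. With edgeR, 32 of the 768 miRNAs (4.17%) passed, 16 of them lower (2.08%), and 176 (22.9%) were lower in all resistant libraries without overlap.

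Without resistant replicate 3, miR-126-3p fell 1.76-fold. Its log2 fold change was then -0.82 (SE 0.20, 95% interval -1.24 to -0.39, edgeR adjusted p = 0.00883), with 25234 ± 3129 CPM in 2 resistant and 44476 ± 7865 CPM in 3 sensitive libraries (SD). In that fit 231 of 822 tested miRNAs passed (28.1%), 118 of them lower (14.4%), 25.8% were lower without overlap, and miR-126-3p was number 122 when all were ordered by p. With edgeR the call was absent with all 6 libraries and present without this library, although the change itself was smaller without it.

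hsa-miR-126-5p, the rarer product, had lower values in resistant libraries too, but the groups overlapped. Its counts were 17200, 28859 and 824 in resistant replicates 1 to 3, against 49844, 76969 and 10443 in sensitive replicates 1 to 3. Its level was 1751, 2178 and 324 CPM in resistant libraries, against 4149, 7861 and 1932 CPM in sensitive libraries. Sensitive replicate 3 lay between resistant replicates 1 and 2, and sensitive replicate 2 was higher than all other libraries. By count it ranked 62, 54 and 146 within resistant libraries and 41, 19 and 63 within sensitive libraries.

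The mean level of miR-126-5p was 1417 ± 971 CPM in resistant cells and 4647 ± 2996 CPM in sensitive cells (SD, n = 3 each). The log2 fold change was -1.71 (SE 0.77, 95% interval -3.50 to 0.08) and did not pass (edgeR adjusted p = 0.198, DESeq2 adjusted p = 0.102). Without resistant replicate 3 it was -1.18 (SE 0.43, 95% interval -2.11 to -0.25) and did not pass either (edgeR adjusted p = 0.0574). Without sensitive replicate 2, the library with the most 5p counts, it was -1.02 (edgeR adjusted p = 0.510).

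**Figure D1:**
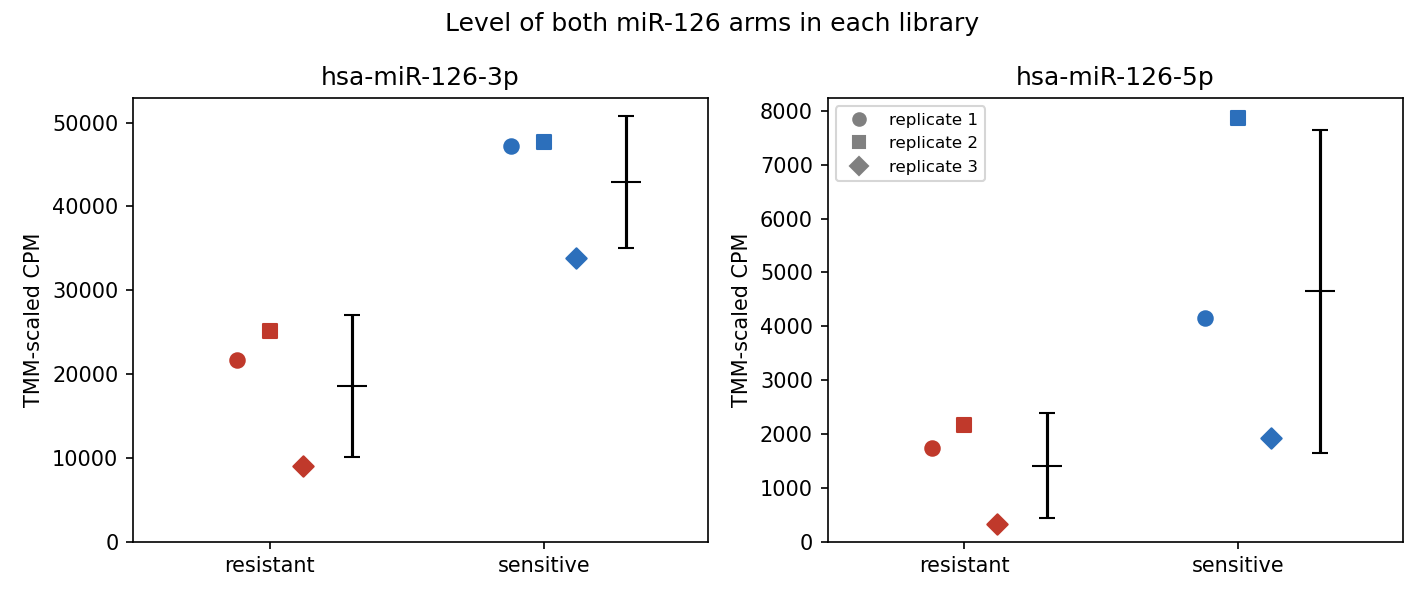
Level of miR-126-3p (left) and miR-126-5p (right) in TMM-scaled CPM, with a point per library (circle, square and diamond for replicates 1, 2 and 3) and the mean ± SD of each group as a black bar. All resistant points of miR-126-3p lie under the sensitive ones (at most 25164 against at least 33797 CPM), while for miR-126-5p the groups overlap.

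Counted together, both products made up 2.77%, 3.40% and 0.725% of the counts in resistant replicates 1 to 3, and 4.92%, 5.34% and 3.41% in sensitive replicates 1 to 3. The means were 2.30 ± 1.40% in resistant and 4.55 ± 1.01% in sensitive libraries (SD, n = 3 each), and that of resistant replicates 1 and 2 was 3.09%. Resistant replicate 2 and sensitive replicate 3 nearly met, with exact 95% binomial intervals of 3.39% to 3.42% and 3.40% to 3.43%. These intervals cover counting error only, and at this depth counting error was small beside the spread between libraries. Fewer cells with the miRNA and less of it per cell cannot be told apart in such bulk RNA.

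Most counts of the hairpin were 3p product in every library. The 5p product made up 7.47%, 7.96% and 3.45% of the miR-126 counts in resistant replicates 1 to 3, against 8.07%, 14.1% and 5.41% in sensitive replicates 1 to 3. Resistant replicates 1 and 2 and sensitive replicate 1 lay close together, sensitive replicate 2 was the highest and resistant replicate 3 the lowest. In counts, miR-126-3p exceeded miR-126-5p by 12.4-fold, 11.6-fold and 28.0-fold in resistant libraries and by 11.4-fold, 6.07-fold and 17.5-fold in sensitive libraries. Adapter ligation differs between miRNAs, so these ratios compare libraries and are not ratios of molecules.

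**Figure D2:**
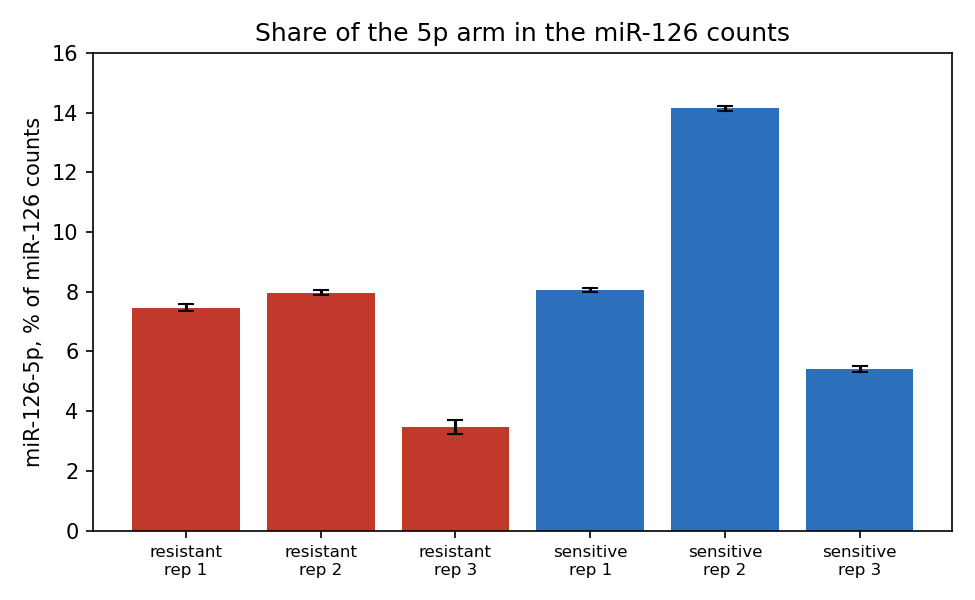
Share of miR-126-5p in all miR-126 counts of each library (percent), with exact 95% binomial intervals for counting error. The shares run from 3.45% to 7.96% in the resistant libraries (red) and from 5.41% to 14.1% in the sensitive ones (blue), and the groups overlap.

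The arm ratio did not differ between the groups beyond the spread of the libraries. The log2 of 3p over 5p counts averaged 3.99 ± 0.71 in resistant and 3.41 ± 0.77 in sensitive libraries (SD, n = 3 each). The difference was 0.58 (SE 0.52, 95% interval -0.63 to 1.78), with an adjusted p of 0.517 in limma over 205 hairpins that had both arms tested. The exact two-sided permutation test over libraries gave p = 0.4 (n = 3 each), where 0.1 is the smallest p that 3 against 3 allows. Without resistant replicate 3 the difference was 0.17 (95% interval -0.63 to 0.96), without sensitive replicate 2 it was also 0.17, and without sensitive replicate 3 it was 0.93. A change in arm use of a size within these intervals was not excluded here.

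Among the 205 hairpins, 3 had an arm ratio that passed (1.46%), and 8.78% had an unadjusted p under 0.05. With resistant replicate 3 left out, 1.83% of 219 hairpins passed and miR-126 did not (limma adjusted p = 0.797). The 3 were miR-181a (log2 difference -8.09, limma adjusted p = 3.67e-05), miR-181b (limma adjusted p = 0.00583) and miR-548ae (-3.10, limma adjusted p = 0.0262), each with less 3p relative to 5p in resistant cells. The 3p products of miR-181a and miR-181b had 0 counts in each resistant library, so the size of their differences depends on the pseudocount of 0.5. By size of the difference, miR-126 was number 112 of the 205.

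The arm ratio of miR-126 varied between replicates more than that of most hairpins in sensitive cells. Its SD over the sensitive libraries was 0.77 on the log2 scale, number 24 of 205 hairpins, whose median was 0.39. In sensitive replicate 2 the log2 ratio was 1.22 lower than the mean of sensitive replicates 1 and 3, and 9 of the 205 hairpins had a lower value there. Over the resistant libraries its SD was 0.71 against a median of 0.72. In both groups the 5p share was highest in replicate 2 and lowest in replicate 3, and replicate 3 was the library with the lowest total in each group.

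GC content moved with these values. Across 677 tested miRNAs the log2 fold change was higher at higher GC content of the miRNA, with Spearman's rho of 0.565 in the fit of all libraries and 0.330 (729 miRNAs) without resistant replicate 3; these miRNAs share libraries and are not independent. Resistant replicate 3 was 2.59-fold below the mean of resistant replicates 1 and 2 for miR-126-3p and 6.07-fold below it for miR-126-5p, the product with less GC. Across the 174 hairpins with a known sequence of both arms, the shift of the log2 arm ratio in that library was larger with a larger GC content of 3p minus 5p (rho 0.551). In sensitive replicate 2 it went the other way (rho -0.410).

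With a correction for GC content fitted in each library, the log2 fold changes were -0.99 for miR-126-3p and -1.26 for miR-126-5p (edgeR adjusted p = 0.0931 and 0.142). With resistant replicate 3 also left out, the corrected value for miR-126-3p was -0.80 and passed (edgeR adjusted p = 0.00574). For miR-126-5p it was -0.99 and did not pass (edgeR adjusted p = 0.0781). In that setting 223 of 822 tested miRNAs passed, 127 of them lower. With the correction applied to both arms, chosen after seeing the data, the arm difference was 0.15 (limma adjusted p = 0.863), and 0.02 without resistant replicate 3 (limma adjusted p = 0.981).

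**Figure D3:**
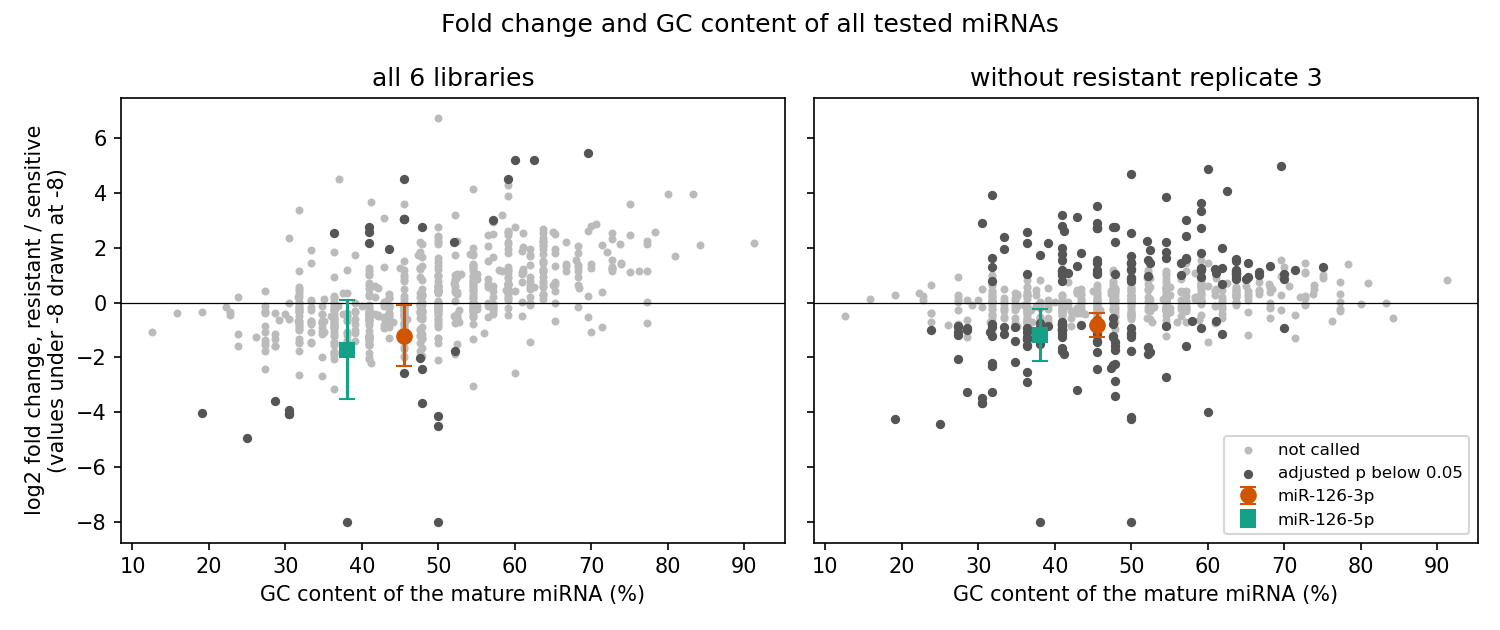
Log2 fold change, resistant over sensitive, against GC content (percent) of each tested miRNA with a known sequence, for all libraries (left) and without resistant replicate 3 (right). Coloured points are the products of miR-126 with 95% intervals (miR-126-3p at -1.20 and -0.82, miR-126-5p at -1.71 and -1.18), dark points passed the threshold, and values under -8 are drawn at -8.

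Under all 17 alternative settings both products had lower levels in resistant than in sensitive cells. miR-126-3p passed the threshold under 3 of these settings and miR-126-5p under 2. limma-voom with weights for library quality called both (log2 fold changes -0.98 and -1.21, limma adjusted p = 0.000179 and 0.00147). That setting called 323 of all 768 tested miRNAs. The setting without a filter, which called miR-126-5p, called 162 of 1734.

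**Figure D4:**
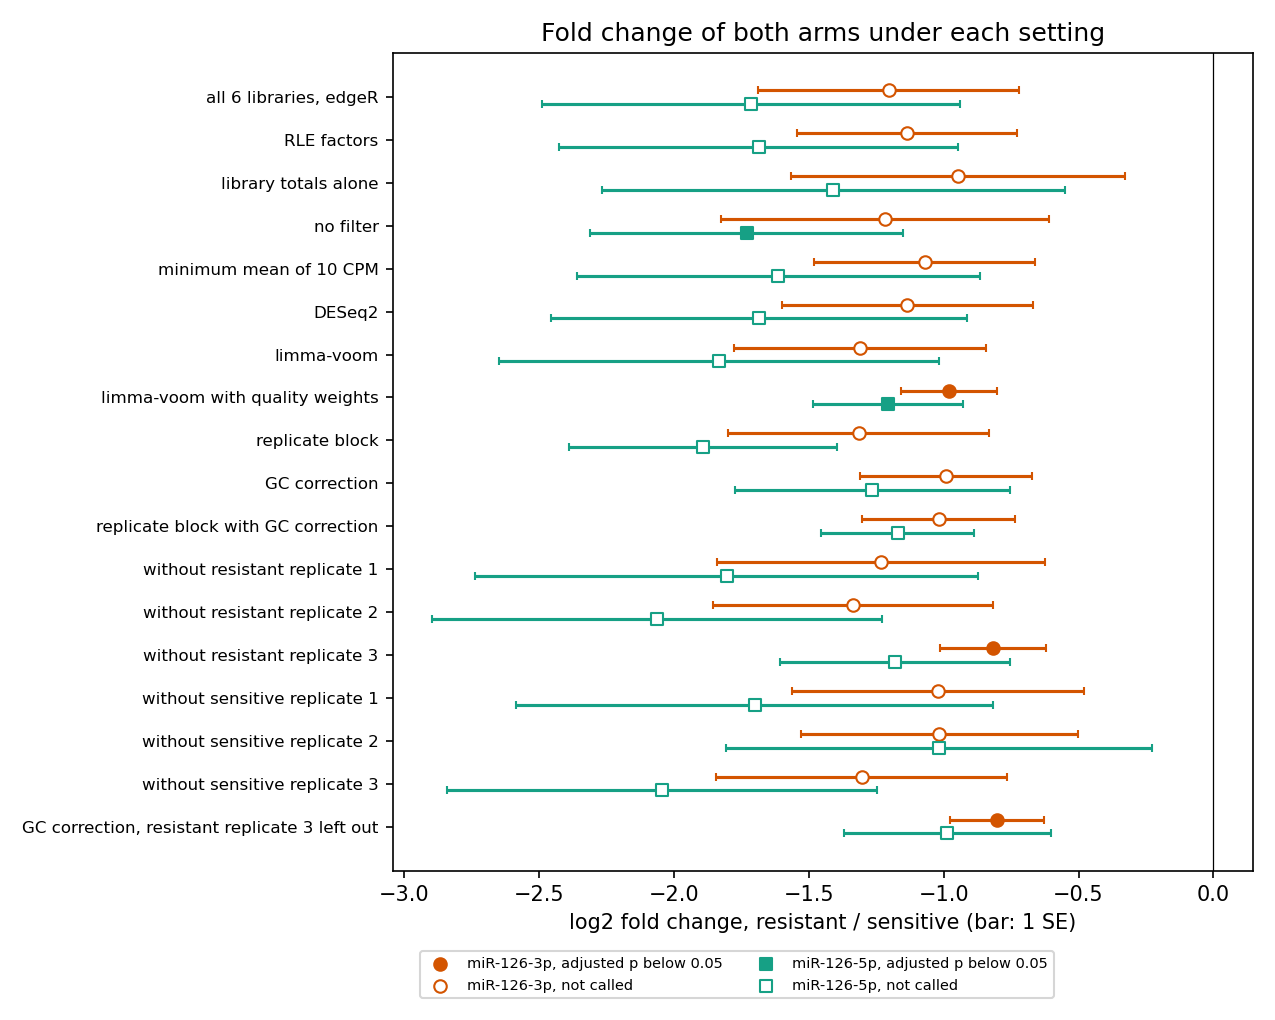
Log2 fold change of miR-126-3p (circles) and miR-126-5p (squares) ± 1 SE in the fit of all libraries and under each alternative, where filled symbols passed the threshold. All values are negative, and those of miR-126-3p run from -1.34 to -0.80.

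The miRNAs with a profile over the 6 libraries most like that of miR-126 were sought among the 469 tested miRNAs that averaged 10 CPM or more. Likeness was the root mean square difference in log2 CPM after each miRNA was centred on its own mean. For miR-126-3p the nearest were miR-494-3p, miR-329-3p, miR-154-5p, miR-379-5p and miR-1307-5p, at 0.15 to 0.19 log2 units. For miR-126-5p they were miR-301b-3p, miR-376a-3p, miR-376c-3p, miR-380-3p and miR-379-3p, at 0.39 to 0.41. Of these 10 miRNAs, 8 come from chromosome 14, as do 80 of the 469 compared (17.1%). The first pair for each arm shows sequences with no seed in common with miR-126 (capitals, bases 2 to 8).
miR-494-3p: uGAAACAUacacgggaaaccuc
miR-329-3p: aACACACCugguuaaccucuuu
miR-301b-3p: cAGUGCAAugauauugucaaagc
miR-376a-3p: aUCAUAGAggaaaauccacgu
The choice by likeness fixes that their differences between the groups resemble those of miR-126, so these are given as a description. The nearest to miR-126-3p, miR-494-3p, had a log2 fold change of -1.31, and of -0.91 without resistant replicate 3. The products of one hairpin were not each other's nearest profile: miR-126-5p was number 178 of 468 from miR-126-3p, at 0.67 log2 units, and miR-126-3p was number 57 of 468 from miR-126-5p. In the libraries other than resistant replicate 3 these ranks were 214 and 23, and the 10 named miRNAs ranked 6 to 24 from miR-126-3p and 2 to 14 from miR-126-5p.

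**Figure D5:**
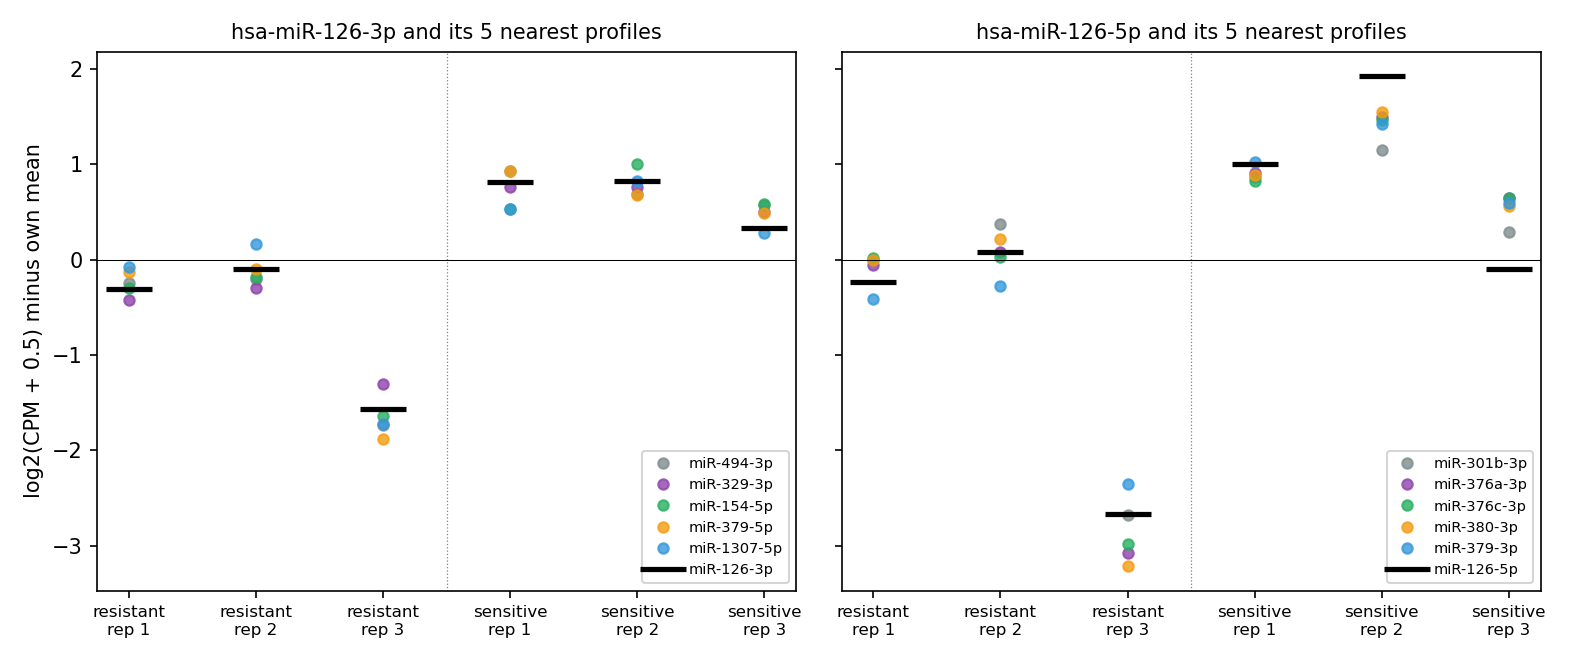
Level of miR-126-3p (left) and miR-126-5p (right) as black bars and of the 5 nearest miRNAs as coloured points in each library, in log2(CPM + 0.5) minus the mean of that miRNA over the libraries. The neighbours of miR-126-3p follow it within 0.15 to 0.19 log2 units (root mean square), and resistant replicate 3 is the lowest library in both panels.

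Other miRNAs of the settings in which miR-126 is known were read from the same fits. Over all tested miRNAs 2.08% rose and 2.08% fell with all libraries, and 77 of 768 were lower and 128 higher at an unadjusted p under 0.05. Without resistant replicate 3, 13.7% rose and 14.4% fell, 162 of 822 were lower and 154 higher at that unadjusted p, and the median log2 fold change was 0.04. DESeq2, run with all libraries, called 98 of 768 higher and 51 lower. Of 12 tested stem and progenitor miRNAs, 1 rose, 2 fell and 9 did not pass (median log2 fold change -0.06, against -0.11 over all tested miRNAs). miR-99a-5p fell to 16.5 ± 4.84 CPM in resistant cells, against 370 ± 83.5 CPM in sensitive cells (log2 fold change -4.48, edgeR adjusted p = 0.00219). miR-125b-5p fell by 4.14 on the log2 scale, with the same adjusted p in edgeR, and by 4.15 without resistant replicate 3. miR-196a-5p rose by 2.55 (edgeR adjusted p = 0.0154), and by 2.80 without that library. The most abundant member, miR-10a-5p, had 5570 ± 3060 CPM in resistant and 6074 ± 1037 CPM in sensitive cells and did not pass (log2 fold change -0.12, and 0.32 without resistant replicate 3). In the fit without that library, 3 of the 12 rose and 4 fell, against 13.7% and 14.4% of all tested, with a median of 0.02, and miR-99a-5p was again among those that fell (log2 fold change -4.25).

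Of 16 tested endothelial miRNAs other than miR-126, 0 passed with edgeR, 4 were lower at an unadjusted p under 0.05, and 2 were lower with DESeq2 (median log2 fold change -0.61, and -0.14 without resistant replicate 3). miR-27b-3p was the most abundant, at 4264 ± 1954 CPM in resistant and 8280 ± 872 CPM in sensitive cells (log2 difference -0.96, edgeR adjusted p = 0.224). miR-221-3p, which represses the KIT receptor, had a log2 fold change of -1.64 (edgeR adjusted p = 0.0777) and miR-100-5p of -2.10 (edgeR adjusted p = 0.134). Both were rare, at 7.75 ± 1.61 and 0.718 ± 0.669 CPM in resistant and 23.9 ± 6.92 and 3.66 ± 1.39 CPM in sensitive cells. The 20 listed endothelial miRNAs together held 2.41%, 2.61% and 0.562% of the counts in resistant replicates 1 to 3, and 2.10% to 2.32% in sensitive libraries. In the 5-library fit that omits resistant replicate 3, 5 of the 16 fell and 0 rose, against 14.4% and 13.7% of all tested, with 7 lower and 0 higher at an unadjusted p under 0.05. miR-27b-3p, miR-221-3p and miR-100-5p were among those that fell, with log2 fold changes of -0.57, -1.73 and -1.76 (edgeR adjusted p = 0.0369, 0.00206 and 0.0125).

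Of 15 tested miRNAs described as silenced by DNA methylation, 0 passed with edgeR (median log2 fold change -0.25, and -0.07 without resistant replicate 3). At an unadjusted p under 0.05, 2 were higher and 3 lower, the counts DESeq2 also gave. miR-127-3p, the most abundant, had 22341 ± 5920 CPM in resistant and 19436 ± 1065 CPM in sensitive cells (log2 fold change 0.20, and 0.02 without resistant replicate 3). miR-9-3p had a log2 fold change of -2.64 (edgeR adjusted p = 0.0509), and that of miR-193a-5p was 4.26 (edgeR adjusted p = 0.0581). Leaving out resistant replicate 3, 2 of 16 rose and 4 fell, against 13.7% and 14.4% of all tested, among them miR-193a-5p (log2 fold change 2.70) and miR-9-3p (-2.20).

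Of 9 tested blood cell miRNAs, 0 passed with edgeR, while 2 were higher with DESeq2 and at an unadjusted p under 0.05 (median log2 fold change -0.54, and -0.10 without resistant replicate 3). The erythroid miR-486-5p had 28676 ± 30042 CPM in resistant and 5679 ± 813 CPM in sensitive cells (log2 fold change 2.34, edgeR adjusted p = 0.130). The value of miR-486-3p was 1.70 (edgeR adjusted p = 0.135). With resistant replicate 3 omitted, 2 of the 9 rose and 1 fell, against 13.7% and 14.4% of all tested, and both miR-486 products rose (log2 fold changes 1.05 and 0.85). The 11 blood cell miRNAs together held 2.70% to 5.16% of the counts in resistant libraries and less, at least 1.76%, in each sensitive one. miR-486-5p alone gave 129105, 126985 and 161152 of the 228569, 287268 and 169772 summed counts in resistant replicates 1 to 3. In sensitive replicates 1 to 3 miR-486-5p gave 74670, 59504 and 25638 of 232779, 203456 and 99454. Of the 9 tested members, 7 had a negative log2 fold change with all libraries, and 5 without resistant replicate 3. Of 8 tested miRNAs of other tissues, 1 rose and 1 fell (median -0.41, and -0.20 without resistant replicate 3). The one that rose was miR-200c-3p of epithelia (log2 fold change 1.94, edgeR adjusted p = 0.0355). miR-145-5p of mesenchyme fell (log2 fold change -1.76, edgeR adjusted p = 0.0467), and with resistant replicate 3 omitted 3 rose and 1 fell, with 1.80 for miR-200c-3p and -1.63 for miR-145-5p. All 17 listed together held 0.0383% to 0.0654% of the counts in resistant and 0.0229% to 0.0311% in sensitive libraries. In each library 7 to 10 of the 17 had counts. miR-499a-5p had 37 to 980 counts in resistant and 229 to 1103 counts in sensitive libraries, and miR-214-3p and miR-133b had 0 in every library. Of 8 tested fragment-like annotations, 0 passed with edgeR or DESeq2 and 1 was higher at an unadjusted p under 0.05 (median 0.90, and -0.56 without resistant replicate 3). miR-1260b, miR-1275 and miR-7704 had log2 fold changes of 1.19, 2.87 and 2.10 (edgeR adjusted p = 0.398, 0.149 and 0.309). With resistant replicate 3 omitted the direction turned for miR-1260b, which fell (log2 fold change -0.66, edgeR adjusted p = 0.0189), and for miR-7704 (-0.56, edgeR adjusted p = 0.545), while miR-1275 had 0.59 (edgeR adjusted p = 0.159). In that fit 2 of the 8 fell and 0 rose, and at an unadjusted p under 0.05 likewise 2 were lower and 0 higher. Their part in the values of miR-126 was not tested.

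Near miR-126 on chromosome 9, little else was counted. Hairpins within 5 Mb gave 20 products in the table, which together held 88 to 153 counts in resistant and 8 to 36 counts in sensitive libraries, and 3 of them were tested. These were miR-3689a-5p, miR-3689b-5p and miR-3689e, which have the same mature sequence and equal counts in all 6 libraries, 32, 44 and 17 in resistant and 4, 9 and 1 in sensitive libraries, so they are 1 measurement. It rose by 3.05 on the log2 scale (edgeR adjusted p = 0.0482), and by 2.72 without resistant replicate 3 (edgeR adjusted p = 0.00206), while miR-126-3p had -1.20 and -0.82. The adjustment counted this measurement 3 times, as do the 16 higher calls among all tested miRNAs. With all libraries its adjusted p lay close to the threshold of 0.05, and a value with the measurement counted once was not computed. In edgeR with RLE factors, the scaling of DESeq2, 0 of the 3 passed. DESeq2 itself, run with all libraries, called the 3 higher. The miR-3689 hairpins lie about 1.82 Mb before MIR126 and are not part of EGFL7.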

How the data were processed

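The labels' protocols name TriPure extraction, DNase treatment, NEBNext small RNA libraries and a NovaSeq run. The authors deposited raw read counts for each mature miRNA. The submitters' processing notes name GRCh38; aligner, counter, miRBase release and read filters: not given in the sources used here. Without molecular identifiers, preferences of ligation and PCR are part of the counts.

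The deposited counts entered edgeR 4.0.16 in R 4.3.3 unchanged, with filterByExpr (minimum count 10, minimum total 15), TMM factors, the quasi-likelihood F test and Benjamini-Hochberg adjustment over all miRNAs. SE is the absolute log2 fold change over the square root of F, and intervals use the test's degrees of freedom. Arm ratios used a pseudocount of 0.5 and limma 3.58.1, over hairpins whose arms could be paired by name. The GC correction is a loess fit per library (span 0.75) on the mature sequence, known for 88.2% of tested miRNAs, with the rest given the mean. Pairing within the hairpin came from RNAfold 2.7.2. Alternatives were RLE factors, library totals, other filters, DESeq2 1.42.0, limma-voom, a replicate block, and leaving out each library. Scripts were tested on simulated data. Replicates of a group differed by more than sampling noise (chi-square per degree of freedom 124 to 4015), so none was counted as a repeat of another.

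Members, lists and tests were chosen with earlier results of these data known. Named miRNAs are both arms, the 5 nearest profiles of each, the called arm pairs, the top miRNA of each library, and, per list, its most abundant tested member plus the 2 of lowest p. miR-196a-5p, miR-142-3p, miR-223-3p, miR-144-3p, miR-451a, miR-150-5p, miR-155-5p, miR-499a-5p, miR-214-3p, miR-133b and miR-3689e were named after their values were seen.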

Additional observations from a re-analysis of the deposited data

How the results depend on the processing

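Both arms of miR-126 had negative log2 fold changes under each of 17 alternatives. miR-126-3p passed under 3 of them (adjusted p = 0.000179 to 0.393 over all): limma-voom with quality weights (-0.98), without resistant replicate 3, and the GC correction without that library (-0.80). miR-126-5p passed under 2 (adjusted p = 0.00147 to 0.510): no filter (-1.73) and quality weights (-1.21). With a library left out in turn, miR-126-3p ran from -1.34 to -0.82 and miR-126-5p from -2.06 to -1.02. The arm difference was positive in 13 alternatives and passed in 0 (limma and diffSpliceDGE; unadjusted p = 0.302 with all libraries); with a library left out it ran from 0.17 to 0.93. Library totals moved the median of all tested miRNAs by 0.20; relative to that median, miR-126-3p was at -1.10 with TMM and -1.03 with totals. Called miRNAs numbered 32 (16 higher, 16 lower), against 21 with RLE factors, 162 without a filter, 14 at 10 CPM, 149 with DESeq2, 323 with quality weights, 70 with the GC correction, 223 with it and without resistant replicate 3, and 4 to 231 with a library left out (7 without resistant replicate 1, 5, 4 and 5 without sensitive replicates 1, 2 and 3). Of the calls 62.8% were higher with totals (27 higher, 16 lower), 65.8% with DESeq2, 71.0% without a filter and 34.8% with the block, against 50% with TMM. Tested miRNAs numbered 1734 without a filter, 471 at 10 CPM, 785 to 833 with a library left out, and 768 otherwise. Called arm pairs numbered 3, against 1 with a pseudocount of 5 and 1 to 4 with a library left out. That number was 1 when any sensitive library was the one left out. List members called moved to 7 (stem and progenitor), 5 (endothelial), 6 (methylation-silenced), 3 (blood cell), 4 (other tissue) and 2 (fragment-like) without resistant replicate 3, to 1 with totals for the methylation-silenced and other tissue lists, to 1 with RLE factors for the other tissue list, and to 0 with RLE factors for the neighbours of MIR126. The cause was not tested. Whether replicate numbers pair the samples was not settled. Correlations of deviations were -0.07, 0.27 and 0.14 for equal numbers 1, 2 and 3, and -0.25 to 0.22 for unequal numbers. For numbers 2 and 3 the equal pair had the highest value of its libraries, and for number 1 it did not. With the number as a block, the values were -1.31 for miR-126-3p, -1.89 for miR-126-5p and 0.58 for the arm ratio. The SE of miR-126-5p was 0.50 with the block and 0.77 without it. With the block 23 miRNAs and 3 arm pairs were called, and no call of miR-126 changed. With 3 libraries a group, the spread between libraries limits these values, not the depth.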
